A study of Mus musculus with 3 samples.

Results

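TRIM genes encode tripartite motif proteins, a family built on a RING finger, 1 or more B-boxes and a coiled coil, most of which act as ubiquitin ligases. The set was taken by symbol, as every gene named Trim followed by a number and at most 1 letter that has a protein-coding transcript, which gave 68 of the 55536 genes in the gene tables and of 22028 protein-coding genes. TRIM genes under other symbols, such as Pml, are outside this definition. From general knowledge, with no protein sequence checked, 4 of the 68 (Trim14, Trim16, Trim29 and Trim44) were listed as encoding proteins without a RING finger. The list may not be complete, and the name ubiquitin ligase does not cover all 68 genes in the strict sense. Total RNA was sequenced from monocytes of the peripheral blood of C57BL/6J mice aged 5 to 6 weeks, in 3 libraries that form 1 group with no treatment, mutation or control. Each library started from 100 ng of RNA depleted of ribosomal RNA, prepared with a ScriptSeq kit, with recorded fragment sizes of 200 to 594 bp in library 1, 200 to 491 bp in library 2 and 200 to 1000 bp in library 3. The labels tie all 3 libraries to the same donor record and give no sex. Nothing says that they came from separate animals. The p-values here set a gene's level against a fixed level, with the spread between libraries as the error. Part of that spread may be technical, and the p-values hold for these libraries only.

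In a ubiquitin ligase of this family the RING finger brings in the E2 enzyme that carries ubiquitin, and the C-terminal part chooses the target. The largest class ends in a PRY-SPRY domain, which binds proteins such as viral capsids or antibodies. Monocytes, circulating phagocytes, use TRIM proteins to tune the receptors that sense viral nucleic acid, and many of the genes are induced by interferon through a promoter element called the interferon-stimulated response element (ISRE). Others, such as Trim28, act in the nucleus to silence genes and retroelements.

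The promoters below are those of Trim21, Trim25 and 8 genes of a run of TRIM genes on chromosome 7. They are shown because the run holds members with much RNA and members with little in the gene tables (Trim6 and Trim34b). The core of the ISRE was searched as GAAANNGAA on both strands, so that TTCNNTTTC is the same motif read from the other strand, in the 300 bases around each start that the RefSeq table (GRCm38.p6) gives, 250 before and 50 after it. Of the 68 genes, 53 had an entry. The motif stood in 12 of these 53 genes (22.6%), against 1582 of 16522 protein-coding genes (9.58%). By promoter window it was 13 of 67 (19.4%) against 1654 of 20150 (8.21%). Among the 12, Trim5, Trim12a, Trim12c, Trim30a, Trim30d, Trim34a and Trim34b all lie in the chromosome 7 run. Several of these promoters are near copies of each other, so their matches are not independent and the family's share rests largely on this run. Capitals mark the motif, and each run covers 50 bases before the start to 30 after it.
Trim30a: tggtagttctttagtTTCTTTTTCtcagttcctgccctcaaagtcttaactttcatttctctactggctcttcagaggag
Trim30d: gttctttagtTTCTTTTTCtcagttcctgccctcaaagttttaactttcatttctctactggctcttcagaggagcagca
Trim12c: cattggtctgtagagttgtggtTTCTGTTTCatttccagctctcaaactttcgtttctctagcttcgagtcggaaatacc
Trim5: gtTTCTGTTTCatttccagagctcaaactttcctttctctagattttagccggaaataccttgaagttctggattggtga
Trim34a: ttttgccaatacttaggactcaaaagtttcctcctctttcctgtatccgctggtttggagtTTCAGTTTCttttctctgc
Trim12a: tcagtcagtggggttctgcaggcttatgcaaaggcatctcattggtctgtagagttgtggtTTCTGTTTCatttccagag
Trim21: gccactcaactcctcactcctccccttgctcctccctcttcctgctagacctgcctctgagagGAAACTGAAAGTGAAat
Trim25: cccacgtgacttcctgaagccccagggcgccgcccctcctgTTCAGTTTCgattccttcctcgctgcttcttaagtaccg
Trim6: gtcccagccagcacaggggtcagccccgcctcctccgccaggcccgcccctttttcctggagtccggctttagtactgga
Trim34b: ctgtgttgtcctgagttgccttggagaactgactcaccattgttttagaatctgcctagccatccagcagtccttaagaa

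These stretches lie at chr7:104465164-104465243 (Trim30a), chr7:104507820-104507899 (Trim30d), chr7:104353320-104353399 (Trim12c), chr7:104288077-104288156 (Trim5), chr7:104244407-104244486 (Trim34a), chr7:104315466-104315545 (Trim12a), chr7:102565453-102565532 (Trim21), chr11:88999353-88999432 (Trim25) and, with no motif within them, chr7:104218745-104218824 (Trim6) and chr7:104329421-104329500 (Trim34b). Trim6, Trim34a, Trim34b and Trim25 are read from the plus strand and the others from the minus strand. In Trim12a, Trim12c and Trim5 the capitals spell the same 9 letters, as they also do in Trim30a and Trim30d. Counted from the start as base 1, the motif began at -35 in Trim30a, -40 in Trim30d, -28 in Trim12c, -48 in Trim5, -9 in Trim25 and 12 in Trim34a and Trim12a. Trim21 held 2 overlapping copies, at 14 and 20. Trim34b, which had little RNA, held a copy farther off at -211, and Trim26 held copies at -159 and -153. Trim7 and Trim2 held the motif at -115 and 30. No match was found in the windows of Trim6, Trim30b and Trim30c, which says only that these letters are not there; the entry of Trim30b starts 11238 bases from the GENCODE start. A match is a description of sequence and not a site of binding.

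Expected counts came to 27.2, 26.5 and 19.9 M in libraries 1, 2 and 3. Monocyte markers were high in every library, with 10 of 10 above 1 TPM. They summed to 2587, 2195 and 1699 TPM in libraries 1, 2 and 3, lowest in library 3. Most of each sum was Lyz2 (1448, 1238 and 718 TPM) and Ctss (497, 369 and 234 TPM). Cx3cr1 was also lowest in library 3, but Tyrobp, Nr4a1, Csf1r, Itgam and Ccr2 were highest there. The fall of the sum therefore does not hold for the monocyte markers in general. Markers of other blood cells were present too. Red cell markers summed to 3533 and 3326 TPM in libraries 1 and 2 and 263 TPM in library 3, with Klf1 at 0 counts in all libraries. Natural killer markers summed to 604, 504 and 1428 TPM and platelet markers to 15.3, 11.0 and 95.6 TPM. B cell markers summed to 90.6, 90.2 and 80.7 TPM and T cell markers to 4.07, 5 and 7.45 TPM. Neutrophil markers summed to 140, 126 and 9.44 TPM with Ly6g at 0 counts, but Retnlg alone held 124, 114 and 0 TPM of this. The other neutrophil markers summed to 15.9, 11.9 and 9.44 TPM, and Csf3r among them was highest in library 3, with 5.99, 6.64 and 8.09 TPM. Basophil and eosinophil markers summed to 23.1, 23.8 and 4.14 TPM, with Epx at 0 counts. Library 3 therefore stands apart from libraries 1 and 2, and most values are given per library. In bulk RNA, fewer cells of a type and less RNA per cell cannot be told apart.

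TPM, a relative transcript abundance, divides counts by transcript length and by the library's total, so it allows levels of different genes to be set side by side. Small nuclear RNAs held 60.8%, 60.0% and 60.5% of that total in libraries 1, 2 and 3, and 1 TPM equals 9.16, 10.2 and 9.34 TPM when the scale covers protein-coding genes only. Each gene with a summed count of 10 or more was tested against a level of 1 TPM (edgeR quasi-likelihood, two-sided, Benjamini-Hochberg adjustment over all 17678 genes tested, threshold 0.05). Of 44 TRIM genes tested, 25 lay above 1 TPM (56.8%), 3 lay below and 16 were called on neither side. Among all protein-coding genes tested 54.0% lay above and 6.02% below, and among all genes tested 43.2% and 6.35%, so the family's share is close to that of protein-coding genes in general. Without library 3, 25 lay above and 3 below, with Trim7 called above in place of Trim37. The DESeq2 Wald test called 18 of the 25, and the 7 that it did not call were Trim5, Trim23, Trim24, Trim30b, Trim35, Trim37 and Trim65. Over every gene, tested or not, 25 of 68 TRIM genes (36.8%) and 7020 of 22028 protein-coding genes (31.9%) lay above.

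The family as a whole summed to 134, 120 and 193 TPM in libraries 1, 2 and 3, which was 0.123%, 0.122% and 0.180% of the TPM of protein-coding genes. The median member had a mean of 0.33 TPM, against 0.14 TPM for the median protein-coding gene. The 5 highest members of each library held 41.4%, 42.7% and 42.1% of the family's sum. Mean levels of the 25 genes called above ran from 1.56 TPM in Trim37 to 21.8 TPM in Trim12a, on 1060 to 11317 counts per gene over the 3 libraries. In that order, 23 of 24 neighbouring pairs had values that overlapped between the genes, and the exception was Trim28 over Trim27. Library 3 held the highest TPM of 24 of the 25 genes, and library 2 the lowest of 18. The median protein-coding gene was itself higher in library 3, by 0.21 and 0.37 (log2) than in libraries 1 and 2.

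**Figure D1:**
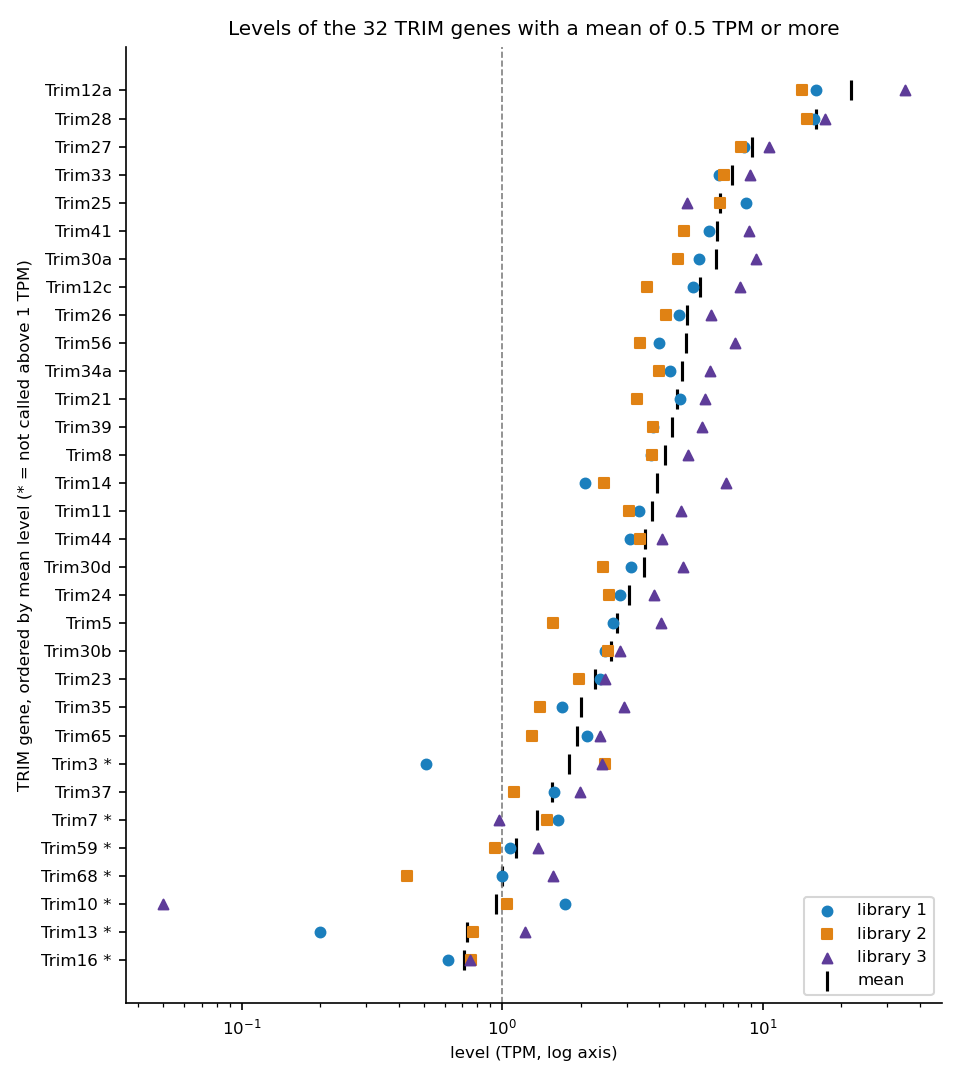
Levels in TPM (log axis) of the 32 TRIM genes with a mean of 0.5 TPM or more, with 1 symbol per library and a bar at the mean; the dashed line is 1 TPM and asterisks mark genes not called above it. Trim12a and Trim28 lead, most other genes lie between 1 and 10 TPM in every library, and Trim10 falls to 0.05 TPM in library 3 alone.

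Of the 4 nuclear members with a PHD finger and bromodomain, Trim28 and Trim33 ranked 2 and 4 in the family by mean TPM, and Trim24 and Trim66 ranked 19 and 46. Trim28 (ENSMUSG00000005566.14), also known as KAP1, is the corepressor that KRAB zinc finger proteins bring to chromatin to silence endogenous retroviruses. It had 15.7, 14.8 and 17.4 TPM in libraries 1, 2 and 3, a mean of 16.0 TPM ± 1.31 (SD, n = 3; edgeR adjusted p = 3.00e-10). Trim33 (ENSMUSG00000033014.12), TIF1-gamma, a cofactor and inhibitor of Smad signalling, had 6.76, 7.09 and 8.91 TPM (edgeR adjusted p = 9.94e-09). Trim24, TIF1-alpha, a cofactor of nuclear receptors, had 2.82, 2.57 and 3.82 TPM (edgeR adjusted p = 2.11e-05). Trim66, the fourth of them, had 8, 0 and 3 counts, so 3 of 4 of this class lay above 1 TPM. All 9 genes listed, from general knowledge, as KAP1 partners lay above 1 TPM, where 54.0% of protein-coding genes tested lay. Chd4, a remodelling helicase, was highest at 32.1 TPM ± 7.77 and Setdb1, the H3K9 methyltransferase that KAP1 recruits, lowest at 2.60 TPM ± 0.77 (SD, n = 3 each).

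Of 17 members listed for antiviral and inflammatory signalling, 11 lay above 1 TPM, 3 were called on neither side and 3 had no counts. Over every protein-coding gene, tested or not, 31.9% lay above. Trim27 (ENSMUSG00000021326.13), which restrains interferon and NF-kappaB signalling, had 8.50, 8.27 and 10.6 TPM (edgeR adjusted p = 6.38e-09). Trim25 (ENSMUSG00000000275.16), described as a ligase in the activation of the RNA sensor RIG-I, had 8.62, 6.85 and 5.10 TPM (edgeR adjusted p = 3.33e-08). Trim25 was the only called member that was lowest in library 3. Trim26, described as a ligase for the interferon regulator IRF3, had 4.78, 4.24 and 6.35 TPM.

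Trim56, which acts in cGAS and STING signalling, had 3.98, 3.38 and 7.84 TPM. Trim21 (ENSMUSG00000030966.13), the cytosolic antibody receptor, had 4.82, 3.30 and 5.97 TPM. Trim8, a regulator of cytokine signalling, had 3.72, 3.74 and 5.15 TPM. In all 3 genes library 3 was highest. Trim14, a RING-less adaptor in MAVS and cGAS signalling, had 2.08, 2.45 and 7.25 TPM (edgeR adjusted p = 0.000209 against 1 TPM). Library 3 was far above both others, a difference that was not tested.

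The remaining called members of this list had means of under 4 TPM. Trim11, which dampens interferon induction, had 3.36, 3.07 and 4.87 TPM, and Trim23, a RING ligase fused to an ARF GTPase domain, had 2.36, 1.96 and 2.48 TPM. Trim35, described as a ligase for IRF7, had 1.69, 1.39 and 2.93 TPM (edgeR adjusted p = 0.00563), and Trim65, which ubiquitinates the RNA sensor MDA5, had 2.11, 1.30 and 2.38 TPM (edgeR adjusted p = 0.00555). Trim13, an endoplasmic reticulum ligase that lies opposite to the longer noncoding gene Dleu2 (22.6 TPM), had 0.20, 0.77 and 1.22 TPM; Trim32 had 0.43, 0.07 and 0.51 TPM and Trim6 46, 10 and 0 counts. Trim31, Trim38 and Trim40 had no counts. Of 9 matched genes listed around the RIG-I and MAVS pathway (1 further symbol had no match), 7 lay above 1 TPM, against 54.0% of protein-coding genes tested. The 7 were led by the antiviral zinc finger protein Zc3hav1 at 15.0 TPM ± 1.38 (SD, n = 3). The list is wider than that pathway, since it also holds Tmem173, the gene of STING, at 4.73, 3.15 and 5.02 TPM. Rnf135, also a ligase of RIG-I, was lowest of the 9 at 0.72 TPM ± 0.30 (SD, n = 3, edgeR adjusted p = 0.348). Mavs, the mitochondrial adaptor, had 0.84, 0.84 and 1.74 TPM (edgeR adjusted p = 0.605).

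Trim12a, the highest member by the mean of 3 libraries, belongs to a run of 10 TRIM genes on chromosome 7 (mm10 104218793 to 104507849, 289 kb), which in order are Trim6, Trim34a, Trim5, Trim12a, Trim34b, Trim12c, Trim30b, Trim30c, Trim30a and Trim30d. This is the mouse counterpart of the region of human TRIM5, whose product binds retroviral capsids in primates. The run held 30.2%, 27.9% and 36.8% of the family's TPM in libraries 1, 2 and 3. Of its 10 genes 7 lay above 1 TPM, against 54.0% of protein-coding genes tested. Trim12a (ENSMUSG00000066258.13, chromosome 7, 104299894 to 104315466, minus strand), a mouse TRIM5 relative whose longest coding sequence spans 297 codons, had 16.0, 14.2 and 35.1 TPM (edgeR adjusted p = 7.13e-10). Its counts were 2156, 1984 and 2894; libraries 1 and 2 lay close together and library 3 was far higher in TPM. Its rank rests on library 3: in library 2 Trim28 was higher, and without library 3 the fitted log2 level was 3.91 for Trim12a and 3.93 for Trim28.

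Trim30a (ENSMUSG00000030921.17), which in mouse restrains Toll-like receptor signalling, had 5.68, 4.73 and 9.39 TPM (edgeR adjusted p = 1.15e-07). Trim30d, its neighbour, had 3.11, 2.44 and 4.93 TPM, and Trim30b, whose annotated coding sequence spans 203 codons, had 2.47, 2.55 and 2.83 TPM. Trim30c, which lies between Trim30b and Trim30a, had only 0, 19 and 7 counts. Trim12c had 5.41, 3.59 and 8.20 TPM and Trim5, with 497 codons like Trim12c, had 2.67, 1.57 and 4.05 TPM. In each gene of this paragraph called above, with the exception of Trim30b, library 2 was lowest and library 3 highest.

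Trim34a had 4.39, 4.01 and 6.24 TPM, while its near copy Trim34b had 0.65, 0.17 and 0.17 TPM. The copies share 98.7% identity over 1827 bases, and the 80-base stretches printed above differ between them, with the motif in that of Trim34a only. Values of such copies are uncertain, because reads that fit both were divided by estimation: Trim5 shares 94.6% over 3710 bases with Trim12c, Trim12a 96.5% over 981 bases with Trim12c and 97.0% over 953 bases with Trim5, and Trim30d 90.1% over 1719 bases with Trim30a. The deposited posterior SD of the count, the quantifier's own measure of that division, was 6.86, 2.50 and 3.17 counts for Trim34a and for Trim34b, whose counts were 104, 28.9 and 21.4. For the other genes of the run it was at most 4.53 counts. Trim21 and Trim68, paralogs that lie elsewhere on chromosome 7, had 4.70 and 1.00 TPM on average, so that 8 of 12 genes of the wider TRIM5 and TRIM21 group lay above 1 TPM.

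**Figure D2:**
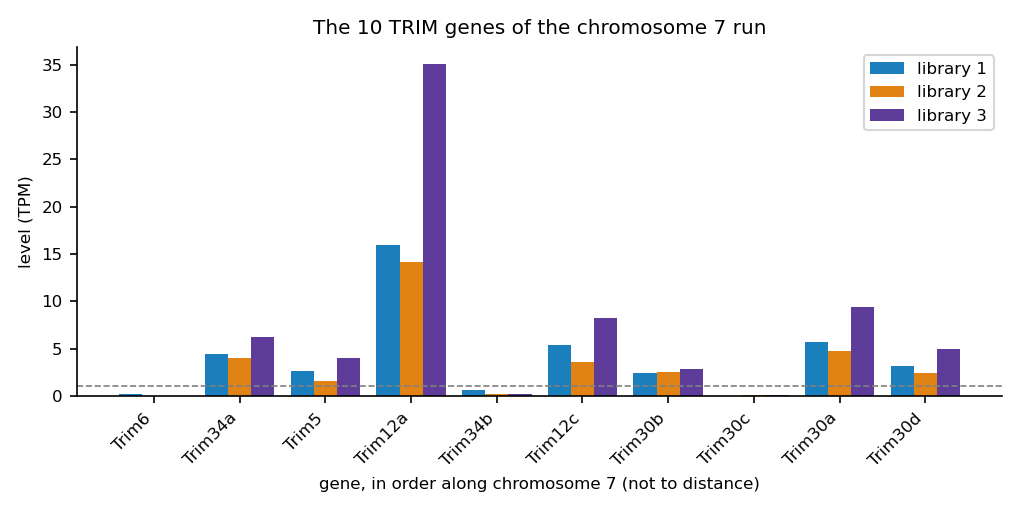
Levels in TPM of the 10 TRIM genes of the chromosome 7 run, in their order along the chromosome, with 1 bar per library and a dashed line at 1 TPM. Trim12a reaches 35.1 TPM in library 3, while Trim6, Trim34b and Trim30c stay under 1 TPM in every library beside neighbours that do not.

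A second run, of 5 genes on chromosome 17 (36837134 to 36910214, 73.1 kb), had a different makeup. Trim26 alone lay above 1 TPM, Trim10 was called on neither side, and Trim15, Trim40 and Trim31 had no counts. Of the shorter runs, Trim41 and Trim7, Trim17 and Trim11, and Trim47 and Trim65 on chromosome 11 each had 1 of 2 genes above 1 TPM, and Trim75, Trim60 and Trim61 on chromosome 8 had none. Trim47 (0, 0 and 2 counts) overlaps Trim65 on the same strand, and its deposited posterior SD was 0, 0.31 and 0.46 counts.

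Other members above 1 TPM belonged to several domain classes. Trim41 (ENSMUSG00000040365.14), a PRY-SPRY ligase, had 6.23, 4.96 and 8.83 TPM (edgeR adjusted p = 1.54e-07); it overlaps the abundant Rack1 on the opposite strand by 31 bases. Trim39, which stabilises partners in cell death and cell cycle control, had 3.78, 3.80 and 5.85 TPM. Trim44, a RING-less protein with a ubiquitin-binding zinc finger, had 3.08, 3.38 and 4.10 TPM. Trim37, a ligase of centrosomes and peroxisomes, had 1.58, 1.11 and 1.98 TPM and lay closest to the threshold (edgeR adjusted p = 0.0408). That call was lost without library 1 (edgeR adjusted p = 0.171) and without library 3 (edgeR adjusted p = 0.158), and over all alternatives the adjusted p ran from 5.95e-10 to 0.613. Apart from Trim35, Trim37 and Trim65, the called members had edgeR adjusted p-values of at most 0.000343.

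For a count by class, each member was placed in at most 1 class. Members listed as without a RING finger were kept apart whatever their C terminus. Trim12a, Trim61 and Trim80 were placed in no class. Of 35 members listed as PRY-SPRY on this basis, 15 lay above 1 TPM, 1 below, 7 on neither side and 12 were untested. Over every protein-coding gene, tested or not, the share above was 31.9%. Of 5 members without an added C-terminal domain, Trim8 and Trim56 lay above and 3 had no counts. Of 5 members with another C terminus, Trim23 and Trim37 lay above. Of 4 listed as without a RING finger, Trim14 and Trim44 lay above, Trim16 had 0.62, 0.76 and 0.75 TPM and Trim29 had no counts. Of 8 COS-box members, which bind microtubules, 3 were tested and 5 had no counts, and of 4 NHL-repeat members 3 were tested. None of those tested was called above 1 TPM by edgeR, with 0 in either class also at an unadjusted p under 0.05.

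The 3 members called below 1 TPM were Trim36, a COS-box protein known from sperm, Trim45, which has a filamin domain, and Trim62. Trim36 had 0.11, 0.43 and 0.47 TPM (edgeR adjusted p = 0.0345), Trim45 had 0.30, 0.17 and 0.17 TPM (edgeR adjusted p = 0.0163) and Trim62 had 0.10, 0.07 and 0.36 TPM (edgeR adjusted p = 0.0248). These calls depended on the libraries: edgeR left 1 without library 1 (Trim45) and 0 without library 2, where all 3 stayed under an unadjusted p of 0.05, and the DESeq2 Wald test on all libraries called none of the 3, nor did edgeR on the tables made from the reads (adjusted p = 0.355, 0.0688 and 0.102 for Trim36, Trim45 and Trim62). Genes at such levels were still detected, on 172 to 415 counts each over 3 libraries. On the scale of protein-coding genes alone all 3 stood above 1 TPM in their fitted level.

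Members known from other tissues mostly had few counts in the M21 gene tables. Of the striated muscle genes Trim54, Trim55, Trim63 and Trim72, only Trim72 had counts, 10 in library 3. Of 5 neuronal members, Trim9 had 0, 22 and 14 counts, Trim46 0, 17 and 41, Trim2 0, 0 and 13, and Trim67 none. The deposited transcript tables made from the reads, summed per gene, gave other values: Trim63 had 17, 24 and 33.1 counts there (mean 0.37 TPM), and Trim2 had 357, 321 and 53.6 counts (mean 0.81 TPM). Which of the tables is nearer to the RNA present was not tested. Trim3, an NHL-repeat ligase known from synapses, was the exception, with 0.51, 2.47 and 2.41 TPM on 162, 297 and 259 counts. It was called on neither side (edgeR adjusted p = 0.102) and lay above without library 1 (edgeR adjusted p = 0.0127); over all alternatives the adjusted p ran from 5.51e-08 to 0.522. Of 9 members known from germ cells, embryos or stem cells, 5 had no counts, and of the other 4 only Trim36 had more than 5 counts in any library.

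In all, 17 of the 68 genes (25%) had no counts in any library in the M21 gene tables, against 35.1% of protein-coding genes. Beside those named so far they are Trim42, Trim43a, Trim43b, Trim50, Trim52, Trim60, Trim75 and Trim80. A count of 0 allows up to 3 counts, which for these genes stood for 0.00408 to 0.0356 TPM in library 1, 0.00377 to 0.0323 TPM in library 2 and 0.00605 to 0.0533 TPM in library 3; such limits cover counting error only. In the tables made from the reads 8 of the 17 were above 0 in at least 1 library, and the means of Trim63 (0.37 TPM), Trim43b (0.22 TPM) and Trim52 (0.18 TPM) lay above all of these limits, so a count of 0 here holds for the gene tables and not for every deposited table. Another 7 genes had some counts but too few to test, with means of 0.00333 to 0.0233 TPM. Counts above 0 were found for 39, 41 and 50 members in libraries 1, 2 and 3, most often in library 3, the library with the fewest counts.

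Trim10, a PRY-SPRY protein known from the maturation of mouse red cells, was low in the library where the red cell markers were low. It had 1.74, 1.04 and 0.05 TPM, on 404, 262 and 8 counts, so libraries 1 and 2 lay far above library 3. Relative to the median protein-coding gene, the log2 difference was -3.83 for library 3 over library 1 and -3.30 for library 3 over library 2. Beside it, Hba-a2, an alpha globin, had 2338, 2289 and 152 TPM, and Alas2, the haem synthesis enzyme of red cells, had 19.3, 18.9 and 1.99 TPM. Markers of other cells fell in library 3 as well: Retnlg had 124, 114 and 0 TPM and Ccr3, of the basophil and eosinophil list, 12.4, 11.6 and 0.17 TPM. Csf3r, of the neutrophil list, did not, with 5.99, 6.64 and 8.09 TPM. The part of red cells or of any other cells in the Trim10 level was not tested. Trim58, the other member known from red cell precursors, where it acts in the loss of the nucleus, had 0, 0 and 2 counts.

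**Figure D3:**
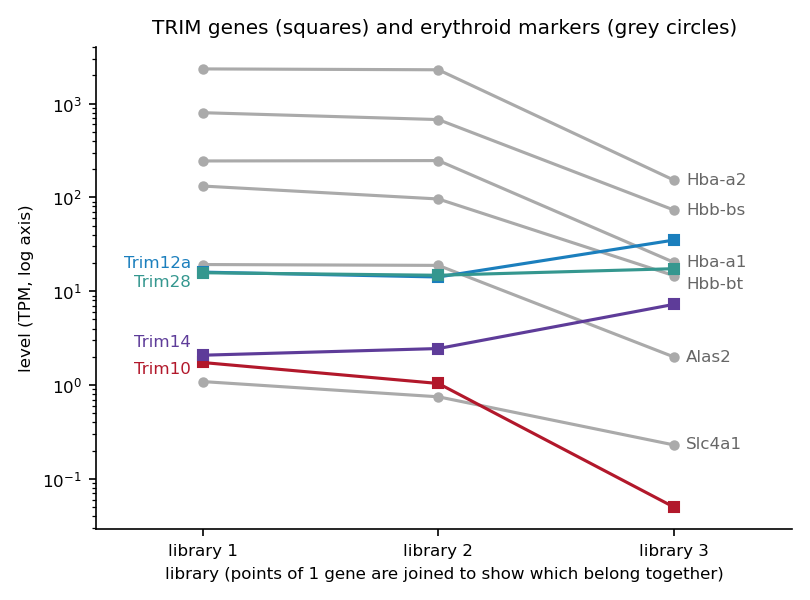
Levels in TPM (log axis) of 4 TRIM genes (coloured squares) and of the 6 red cell markers with counts (grey circles) in each library, with the points of a gene joined. Trim10 and the markers are lower in library 3 than in libraries 1 and 2, Trim28 is level, and Trim12a and Trim14 are higher in library 3.

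The spread between libraries was described by the log2 ratio of TPM + 0.1 between each pair, relative to the median of the 8302 protein-coding genes with a mean of 1 TPM or more, of which 29 were TRIM genes. No test is possible between single libraries. Trim10, with a mean of 0.94 TPM, is not among the 29, although it was far lower in library 3 (-3.83 and -3.30 over libraries 1 and 2). Between libraries 3 and 1, Trim3 and Trim14 were higher by more than 2-fold in library 3, and none of the 29 was lower. Among all 8302 genes 6.96% were higher and 5.36% lower. Between libraries 3 and 2, Trim14 and Trim68 were higher in library 3, and none of the 29 was lower, against 6.94% and 5.53%. Between libraries 2 and 1, Trim3 was higher in library 2 and none of the 29 was lower, against 3.18% and 3.23%. The counts past 2-fold among the 29 are near these background shares.

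Trim14 differed by 1.54 (library 3 over library 1) and 1.16 (library 3 over library 2) on this log2 scale, and Trim3 by 1.83 (library 3 over library 1) and 2.23 (library 2 over library 1). Trim12a, just inside 2-fold, had 0.92 and 0.93 for library 3 over libraries 1 and 2, and Trim25 had -0.95 and -0.79. The median of the 29 members was 0.25 for library 3 over library 1, with 23 of 29 above the median protein-coding gene, 0.25 for library 3 over library 2, with 20 of 29, and -0.01 for library 2 over library 1, with 13 of 29; over all 8302 genes the median is 0 by construction. Library 3 also had higher natural killer and platelet marker sums and a lower red cell marker sum. Its monocyte marker sum was lower too, mainly through Lyz2 and Ctss, while several other monocyte markers were highest there. The part of these cell types in the TRIM values was not tested.

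**Figure D4:**
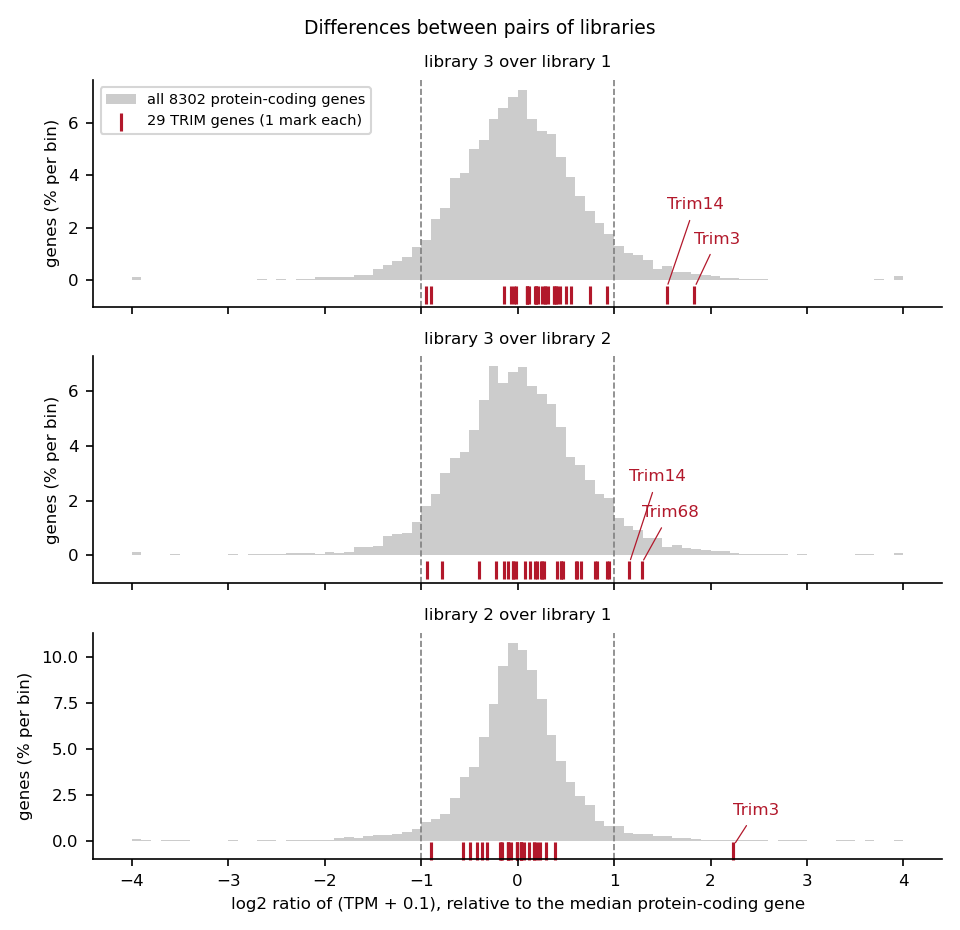
Log2 ratios of TPM + 0.1 between each pair of libraries, relative to the median protein-coding gene; grey bars give the percentage of all 8302 protein-coding genes per bin (values past 4 are drawn at 4) and red marks the 29 TRIM genes. Trim3, Trim14 and Trim68 are those of the 29 past 2-fold (dashed lines) in a pair, and most other marks for library 3 lie right of 0. Trim10, with a mean under 1 TPM, is not drawn.

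A gene's TPM sums over its annotated transcripts, and these differed in type among the 25 called members. In 10 of the 25 the whole TPM was assigned to protein-coding transcripts in every library, among them Trim5, Trim12c, Trim25, Trim34a, Trim44 and Trim56. In 4 genes protein-coding transcripts held under 50% of the TPM on average, namely Trim14, Trim26, Trim28 and Trim30b, with Trim26 at 49.9% and so just inside. For Trim28 the 1 protein-coding transcript held 12.0%, 7.04% and 14.7%, while Trim28-210, a processed transcript, a class with no annotated reading frame, held 49.0%, 43.9% and 51.1%. Retained introns made up most of the rest. The protein-coding transcript alone thus had 1.89, 1.04 and 2.56 TPM. It is longer than the others, and held 654, 389 and 596 of the gene's 1594, 1332 and 1271 counts.

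By mean share Trim14 led with a processed transcript, Trim14-204, at 30.3%, 61.2% and 43.6%. In library 1 the protein-coding Trim14-202 held more, 47.6%. The counts of Trim14-204 were 35.1, 92.8 and 116, of 319, 275 and 466 for the gene. The protein-coding share of Trim14 was 47.6%, 26.5% and 32.3%. Trim14 overlaps Nans on the opposite strand over 9852 bases, and no source used here says whether counting used the strand. Trim30b led with a retained intron, Trim30b-202, at 59.9%, 56.5% and 35.3%. Trim26 had 53.4%, 51.9% and 44.4% in protein-coding transcripts. In Trim12a, Trim12a-203 (protein-coding) held 56.4%, 34.3% and 42.9% and Trim12a-206 (processed transcript) 24.0%, 40.6% and 38.3%.

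Shares of single transcripts varied between libraries. In 13 of the 25 genes the same transcript led in every library. In Trim34a, Trim34a-202 held 0%, 70.6% and 1.12%, and in Trim24, Trim24-201 held 57.4%, 0% and 26.0%, so the values of their single transcripts are uncertain. The leading protein-coding transcript held under 50% of TPM in 13 genes: Trim12a, Trim14, Trim21, Trim23, Trim24, Trim26, Trim28, Trim30b, Trim33, Trim34a, Trim39, Trim41 and Trim65. Trim21 had 43.4%, 51.8% and 64.7% in protein-coding transcripts, with retained introns in the rest, and Trim33 had 91.4%, 46.8% and 72.6%.

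**Figure D5:**
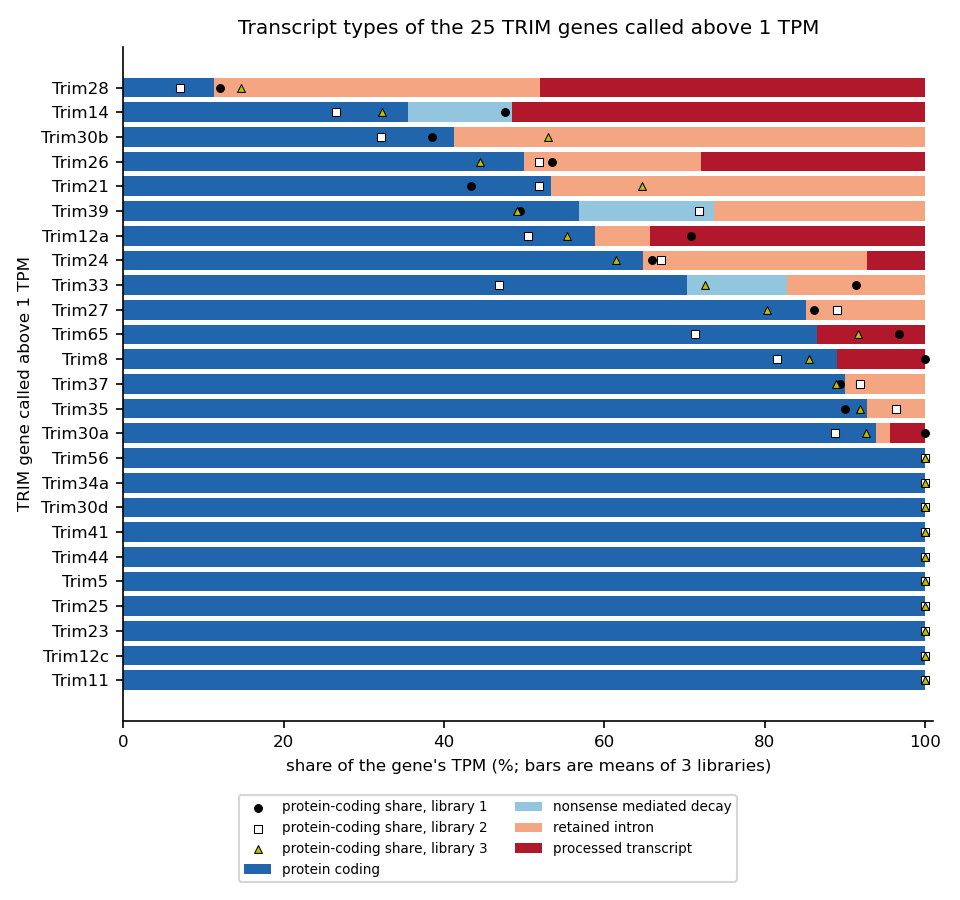
Mean share of each called TRIM gene's TPM (%, 3 libraries) held by transcripts annotated as protein-coding, nonsense-mediated decay, retained intron or processed transcript, with small symbols for the protein-coding share in each library. Trim28 has the smallest protein-coding share, 7.04% to 14.7%, and 10 genes have protein-coding transcripts alone.

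The deposited tables made with the older GENCODE M4 annotation gave another level for 5 of the 25 called genes by more than 1.5-fold. Trim33 averaged 7.59 TPM with M21 and 2.96 TPM with M4, Trim27 9.11 and 3.68 TPM, Trim21 4.70 and 2.74 TPM and Trim28 16.0 and 9.59 TPM, while Trim30b averaged 2.62 and 5.32 TPM. All 25 lay above 1 TPM with either annotation. The tables made from the reads gave higher levels than the M21 gene tables for all 25, by 1.55 to 2.85 times. This is no trait of the 25: Trim7, Trim59, Trim34b and Trim45, not called above, had ratios of 1.73, 1.72, 1.80 and 1.74. Trim6 and Trim2 were farther off, at 10.1 and 60.9. The ratio over all protein-coding genes was not computed, so a shift of the whole TPM scale cannot be told apart from a change in these genes. Trim6, not among the 25, averaged 0.063 TPM in the M21 gene tables. In the tables made from the reads it averaged 0.64 TPM ± 0.51 (SD, n = 3). Of 4 TRIM relatives under other names, Mefv, the pyrin gene of fever syndromes, had 2.64, 2.40 and 2.11 TPM and lay above 1 TPM (edgeR adjusted p = 0.000289), and Pml, the organiser of nuclear bodies, had 0.69, 1.46 and 2.42 TPM on neither side (edgeR adjusted p = 0.135). Mid1 and Mid2, microtubule-binding ligases, averaged 0.45 and 0.017 TPM. The listed E1 and E2 enzymes and ubiquitin genes that TRIM ligases draw on all lay above 1 TPM (13 of 13), where 54.0% of protein-coding genes tested lay. They ran from Ube2d1 at 2.94 TPM ± 0.91 to the ubiquitin gene Ubb at 148 TPM ± 16.8 (SD, n = 3 each). Such lists were written from general knowledge, and no test of a list was run.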

How the data were processed

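Total RNA-seq of mouse blood monocytes (1 group, 3 libraries) was analysed from the deposited tables. Per the notes deposited with the files, the authors made the values on mm10 with GENCODE M21 and separately with M4; no source used here gives the programs or the strand setting. The deposited gene tables hold expected counts (estimated read numbers, which are fractional for genes that share reads), TPM values scaled by the authors over every row, effective lengths and posterior SDs of counts. A further deposited table per library gives estimated counts and TPM per transcript from the reads.

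Expected counts of the M21 tables were rounded and fitted across all genes with edgeR 4.0.16 (glmQLFit, intercept only, offset equal to the log of the count that 1 TPM stands for). The F test, computed from the deviances and moderated dispersions, was tested on simulated data. The precision follows from depth: 1 TPM corresponded to 112, 121 and 76.0 counts (libraries 1, 2 and 3) where the effective length was 1000 bases. Alternatives used limma 3.58.1 and DESeq2 1.42.0. Rows that name no gene held at most 0.000571% of counts and stayed out. Similar transcripts were found with BLAST+ 2.17.0 (identity of 90% or more over 300 bases or more). Every member called above, members past 2-fold in 2 pairs of libraries, the red cell members and the chromosome 7 run are named with values; a few others were named after their values were seen. Members, lists and tests were chosen with earlier results of these data known. A further red cell marker is not reported here and was left out of the marker sums.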

Additional observations from a re-analysis of the deposited data

How the results depend on the processing

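The 25 members above 1 TPM were all called with TMM factors, DESeq2 size factors, GENCODE M4 and no filter on low counts (26 members above there). The count above was 18 with the DESeq2 Wald test, and 24 and 22 with limma on log2(TPM + 0.1) and log2(TPM + 1). It was 28 at 0.5 TPM, 35 at 0.1 TPM or on the protein-coding scale, and 24 to 25 with any library left out. In the tables made from the reads it was 29, but levels of all 25 were higher there, so 1 TPM is not a like threshold. The count below was less stable: 1 with the DESeq2 Wald test (Trim66, which is none of the 3), 2 in the tables made from the reads (Trim9 and Trim67, with none of the 3), 12 with limma at either pseudocount, 0 by edgeR at 0.5 TPM, at 0.1 TPM and on the protein-coding scale (0 also at an unadjusted p under 0.05), and 0 to 3 with a library left out. Trim36, Trim45 and Trim62 stood at log2 levels of 1.74, 1.09 and 0.85 against 0.1 TPM and of 1.69, 1.01 and 0.76 on the protein-coding scale; only Trim36 then passed the test.

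The family's mean sum of 149 TPM was 279 TPM in the tables made from the reads and 1417 TPM on the protein-coding scale; it was 138 TPM with M4 and 127 to 164 TPM with a library left out. Members past 2-fold, against 2 (library 3 over 1), 2 (3 over 2) and 1 (2 over 1), numbered 0 for library 3 over 2 with a pseudocount of 1; 7 and 2 for library 3 over 2 and library 2 over 1 without centring; and 4 and 2 for library 3 over 1 and library 2 over 1 at a mean of 0.5 TPM or more, where Trim10 and Trim13 enter. Members with under 50% in protein-coding transcripts numbered 4 by counts, with Trim39 in place of Trim26, and 6 in the tables made from the reads, with Trim21, Trim24 and Trim39 added and Trim26 not among them, an alternative chosen after seeing the data. Except where a level or filter sets it by construction, the cause was not tested. No paired analysis was possible because the series has 1 group.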
